A study of Mus musculus with 6 samples.

Results

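The genes described here handle iron and haem: the ferritin chains Fth1 and Ftl1, the ferritin cargo receptor Ncoa4, the haem-degrading enzymes Hmox1 and Blvrb, the iron importer Tfrc, the iron exporter Slc40a1, the ferroxidase Cp and the phagosomal metal transporter Slc11a1. They were taken as a fixed list of 9 symbols, each counted once, out of the 27933 genes of the count matrices, and all 9 are present in the 6 libraries. Levels were read per library and per cell class over barcodes with 200 or more detected genes.

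The libraries were made by Drop-seq, in which beads in droplets tag the RNA of single cells with a barcode for the cell and a molecular identifier (UMI) for the transcript, from 4T1 tumours, a breast cancer line of mouse, grown in Balb/c hosts. In the FVIO-MHT group (3 libraries), ferrimagnetic vortex iron oxide nanorings (FVIOs) were placed in the tumour at 0.1 mg per cm3 of its volume, mice spent 10 min in an alternating field of 365 kHz, which heats the rings, and tumours were taken 24 h later. In the PBS group (3 libraries), tumours received buffered saline and were taken at the same 24 h. All 6 samples carry one protocol text, and it does not say whether PBS mice were also placed in the field. The labels do not tie each replicate to its own mouse, so a p-value here reflects only how these 6 libraries vary. Red blood cells were lysed while the tumours were being dissociated. The treatment delivers iron oxide, and the comparison asks how genes that take up, store and recycle iron were expressed one day after it.

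As background, iron enters most cells bound to transferrin through the transferrin receptor, encoded by Tfrc, and excess iron is stored inside ferritin, a shell of heavy chains (Fth1), which oxidise iron, and light chains (Ftl1), which help it mineralise. Macrophages recycle iron by engulfing red cells: haem oxygenase (Hmox1) opens the haem ring and frees its iron, biliverdin reductase B (Blvrb) acts on the pigment that is left, and ferroportin (Slc40a1) lets iron out with ceruloplasmin (Cp) oxidising it outside the cell. Much of this control is exerted on the messenger RNA by a short hairpin, the iron-responsive element, which iron regulatory proteins bind when iron is scarce: in ferritin and ferroportin messages it blocks translation, and in the Tfrc message it protects the RNA from decay. A transcript count can therefore follow Tfrc regulation by this route, whereas translational control of ferritin leaves no trace in it.

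The elements are shown because they divide the members by the kind of control they carry. In GENCODE M21 transcripts (GRCm38, the build also called mm10), a search of the sense strand for an unpaired C, 5 bases, the loop CAGTGN and 5 bases able to pair with the first 5 found an element in the 5′ UTR of 28 of 20873 protein-coding genes (0.134%) and in the 3′ UTR of 127 of 21669 (0.586%). Of the 9 members, Fth1, Ftl1 and Slc40a1 held 1 such element in the 5′ UTR and Tfrc held 4 in the 3′ UTR. The 27 bases around each are given 5′ to 3′ from the GENCODE transcripts, with the 6 loop bases in capitals.
Fth1, 5′ UTR, chr19:9982733-9982759, + strand: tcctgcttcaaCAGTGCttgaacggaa
Ftl1, 5′ UTR, chr7:45459780-45459806, − strand: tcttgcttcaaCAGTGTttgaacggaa
Slc40a1, 5′ UTR, chr1:45925466-45925492, − strand: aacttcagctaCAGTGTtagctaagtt
Tfrc, 3′ UTR, chr16:32631220-32631246, + strand: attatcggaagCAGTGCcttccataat
Tfrc, 3′ UTR, chr16:32631599-32631625, + strand: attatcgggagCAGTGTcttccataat
Tfrc, 3′ UTR, chr16:32631664-32631690, + strand: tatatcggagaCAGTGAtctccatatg
Tfrc, 3′ UTR, chr16:32631711-32631737, + strand: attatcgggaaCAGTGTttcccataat
Both ferritin chains carry the same stem letters next to the loop, while the 4 Tfrc elements differ from each other in the upper stem. No match in the other 5 members says only that these letters are not in their annotated UTRs.

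The libraries held 678337 to 2207534 UMIs each, and 6730 of 30000 barcodes passed the gene minimum: 332, 1049 and 2325 in FVIO-MHT libraries 1, 2 and 3, and 1080, 1462 and 482 in PBS libraries 1, 2 and 3. Cells were clustered without the members or the other pathway genes, so that class levels of these genes are not set by the clustering, and 15 of 17 clusters could be named from markers. Libraries stood apart in their makeup. FVIO-MHT library 1 was 79.8% neutrophil-like and held 0 UMIs of all 7 tumour epithelial markers, so it gives no tumour value, and FVIO-MHT library 3 was 51.1% unnamed cells, all from a cluster led by Hbb-bs and Krt7. That cluster matched erythroid markers first and stayed unnamed because its leading genes pointed to tumour epithelial cells as well. Its cells are not part of the tumour epithelial-like class, and whether they are tumour cells was not tested. PBS libraries 2 and 3 shared 33 kept barcode sequences, against 0 or 1 for every other pair, and 29 of the 33 fell in the same class in both. Whether PBS libraries 2 and 3 are independent is not known, and every test here counts them as separate libraries. Without barcodes found in more than 1 library, the 7 members tested in whole libraries kept the sign of their difference, and log2 fold changes given below moved to 1.92 for Fth1, 1.37 for Ftl1, 3.23 for Hmox1, 3.35 for Slc11a1 and −2.22 for Cp.

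Fth1 was found in every class, and its level in CPM (UMIs of the gene per 1e+06 UMIs of the library or class) fell into an order headed by myeloid cells. Neutrophil-like cells held 57690.2 and 38548 CPM in FVIO-MHT libraries 1 and 2 and 48494 CPM in PBS library 1, the 3 libraries with at least 20 such cells. Macrophage/monocyte-like cells held 30400.4, 20657 and 17645 CPM in the FVIO-MHT libraries, against 27134, 15657 and 19863 CPM in the PBS libraries. Tumour epithelial-like cells held 12085 and 6739 CPM in FVIO-MHT libraries 2 and 3, against 16148, 5982 and 7706 CPM in the PBS libraries. Within a library the order did not vary among these classes: neutrophil-like cells were above macrophage/monocyte-like cells in 3 of 3 shared libraries, by 0.89 ± 0.04 on the log2(CPM + 10) scale (SD), and macrophage/monocyte-like cells were above tumour epithelial-like cells in 5 of 5, by 1.13 ± 0.34. The cluster led by Hbb-bs and Krt7 lay next, 0.15 ± 0.23 below tumour epithelial-like cells over 4 libraries. T-like, fibroblast-like, endothelial-like and skin-like cells followed at mean log2(CPM + 10) values between 11.20 and 12.34, and neighbours among them differed by less than the spread of the paired differences or shared too few libraries to say. No pair of neighbouring classes shared 6 libraries for any member, so no p-value is given for an order; with the 5 shared by macrophage/monocyte-like and tumour epithelial-like cells the exact two-sided sign-flip test cannot go below 0.0625.

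**Figure D1:**
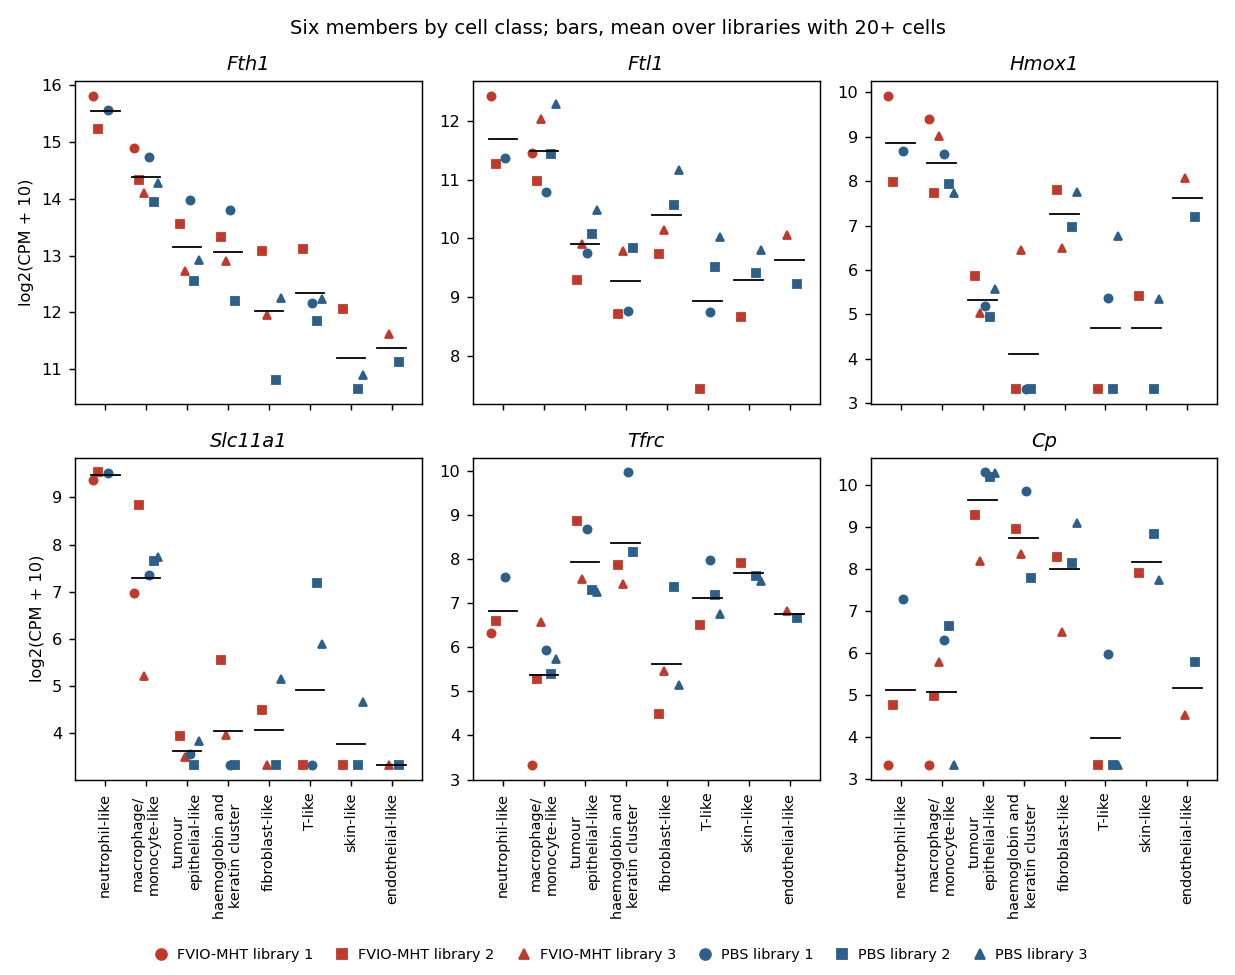
Levels of 6 members as log2(CPM + 10) in each cell class, 1 point per library with 20 or more cells of the class, bars at the mean over libraries. Fth1, Ftl1, Hmox1 and Slc11a1 are highest in neutrophil-like and macrophage/monocyte-like cells, while Cp is highest in tumour epithelial-like cells.

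Ftl1 followed a similar order with a smaller gap between the myeloid classes. Its level in macrophage/monocyte-like cells was 2808, 2005 and 4166 CPM in the FVIO-MHT libraries, against 1753, 2755 and 5009 CPM in the PBS libraries, and in neutrophil-like cells it was 5522 and 2469.7 CPM in FVIO-MHT libraries 1 and 2, against 2649.7 CPM in PBS library 1. Tumour epithelial-like cells held 619 and 949 CPM in FVIO-MHT libraries 2 and 3, against 847, 1069 and 1426 CPM in the PBS libraries, and lay under macrophage/monocyte-like cells in 5 of 5 libraries by 1.6 ± 0.42 on the log2(CPM + 10) scale. Fibroblast-like cells came next and lay above tumour epithelial-like cells in 4 of 4 libraries by 0.46 ± 0.18. Near-identical copies limit these counts: of the annotated pseudogenes of either chain, only Ftl1-ps1 has a row in the matrices, where it stands at 0 UMIs, and the sources used here do not say how reads shared with a copy were assigned.

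The ratio of Fth1 to Ftl1 UMIs split the libraries in a way that did not follow the groups. Over whole libraries it was 10.5, 14.4 and 5.94 in FVIO-MHT libraries 1, 2 and 3, against 17.5, 5.47 and 4.22 in PBS libraries 1, 2 and 3. FVIO-MHT library 3 thus lay with PBS libraries 2 and 3, and PBS library 1 with FVIO-MHT libraries 1 and 2. The split held inside classes: macrophage/monocyte-like cells gave 10.8, 10.3 and 4.24 in the FVIO-MHT libraries, against 15.5, 5.68 and 3.97 in the PBS libraries, and tumour epithelial-like cells gave 19.5 and 7.10 in FVIO-MHT libraries 2 and 3, against 19.1, 5.59 and 5.40 in the PBS libraries. Barcodes under the gene minimum, which entered no other value in this paragraph, gave 11.5, 18.3 and 6.33 in the FVIO-MHT libraries, against 20.5, 5.01 and 4.59 in the PBS libraries. The ratio is read between libraries and not as a level of one chain against the other. What sets the split was not tested.

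**Figure D2:**
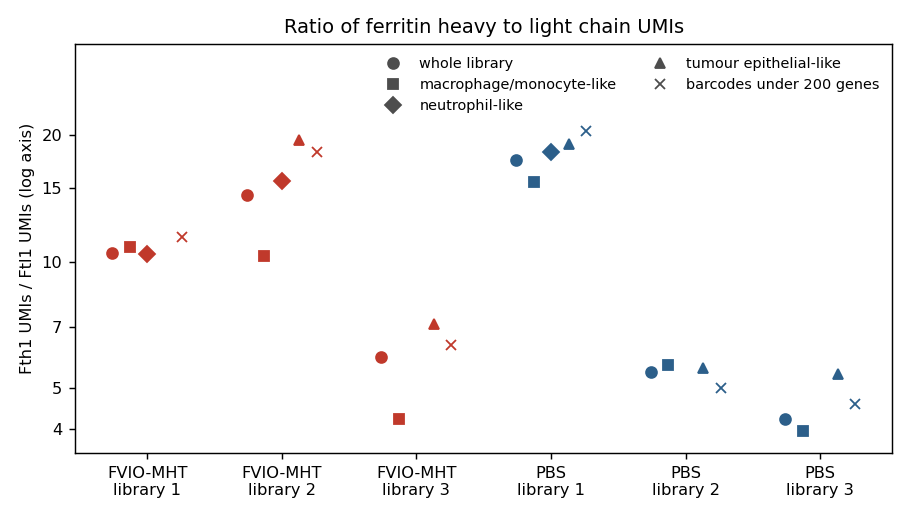
Ratio of Fth1 to Ftl1 UMIs per library on a log axis, in whole libraries, in 3 cell classes with 20 or more cells and in barcodes under 200 genes. FVIO-MHT libraries 1 and 2 and PBS library 1 lie at 10.3 or above in every set shown, and the other libraries lie at 7.10 or below.

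Ncoa4, the receptor that carries ferritin to lysosomes so that its iron is released, was near the limit of these libraries with 37 UMIs in all kept barcodes. Whole libraries held 16.6, 2.22 and 3.43 CPM with FVIO-MHT, against 4.54, 8.07 and 14.9 CPM with PBS, and the groups overlapped. It did not pass the filter on low counts in any comparison, and its order of classes rests on 0 to 12 UMIs per sum.

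Hmox1 had its highest class mean in neutrophil-like cells, followed by macrophage/monocyte-like (clusters pooled), endothelial-like and fibroblast-like cells, and was lower in tumour epithelial-like cells. Neutrophil-like cells held 961 and 242 CPM in FVIO-MHT libraries 1 and 2, against 399 CPM in PBS library 1, and lay above macrophage/monocyte-like cells in 3 of 3 libraries by 0.28 ± 0.22 on the log2(CPM + 10) scale. Macrophage/monocyte-like cells held 666, 201 and 511 CPM in the FVIO-MHT libraries, against 378, 237 and 203 CPM in the PBS libraries. Tumour epithelial-like cells held 47.8 and 22.8 CPM in FVIO-MHT libraries 2 and 3, against 26.6, 20.7 and 37.9 CPM in the PBS libraries. The difference between these classes was 2.89 ± 0.88 on the log2(CPM + 10) scale, with macrophage/monocyte-like cells higher in 5 of 5 libraries. Endothelial-like cells held 259 CPM in FVIO-MHT library 3 and 136 CPM in PBS library 2, and fibroblast-like cells held 214 and 79.8 CPM in FVIO-MHT libraries 2 and 3, against 116 and 205 CPM in PBS libraries 2 and 3.

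Within macrophage/monocyte-like cells, Hmox1 separated the 2 clusters of the class more clearly than it separated the groups. One cluster is led by Pf4, C1qc and C1qa, genes of tissue macrophages, and the other by Mmp12 and Arg1. In the 4 libraries with at least 20 cells of both, Hmox1 was higher in the C1q-led cluster each time. It was 527 against 149.8 CPM in FVIO-MHT library 2, 537 against 248 CPM in FVIO-MHT library 3, 682 against 261 CPM in PBS library 1 and 652 against 196 CPM in PBS library 2. The mean paired difference was 1.47 ± 0.31 on the log2(CPM + 10) scale (SD, n = 4), and the exact two-sided sign-flip test with 4 libraries cannot go below 0.125. The C1q-led cluster also lay above neutrophil-like cells in FVIO-MHT library 2 (242 CPM) and PBS library 1 (399 CPM). In FVIO-MHT library 1 it lay below them, at 696 against 961 CPM. The first place of neutrophil-like cells therefore holds against the pooled class and not against this cluster. Counts behind these values were small, with 20 Hmox1 UMIs in the C1q-led cluster over PBS libraries 1 and 2. The other cluster held 23 over FVIO-MHT libraries 2 and 3. The clusters were formed without Hmox1, but both come from the same cells, and this contrast was chosen after their values were seen. Slc11a1 ran the other way and was higher in the Mmp12-led cluster in 4 of 4 libraries, on few UMIs. In the C1q-led cluster it had 0 UMIs in PBS libraries 1 and 2, in sums of 16119 and 13808 UMIs. There 3 UMIs, the upper limit for a count of 0, would lie near the Mmp12-led cluster of the PBS libraries, at 179 to 214 CPM. The order in PBS libraries 1 and 2 is therefore not resolved for Slc11a1. The 2 clusters filled the class unequally: the C1q-led cluster gave 62 of 64, 37 of 222 and 402 of 445 macrophage/monocyte-like cells in FVIO-MHT libraries 1, 2 and 3, against 29 of 100, 25 of 204 and 13 of 93 in PBS libraries 1, 2 and 3. Fth1 and Ftl1 showed no such order, with the C1q-led cluster higher in 2 of 4 libraries for each.

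**Figure D3:**
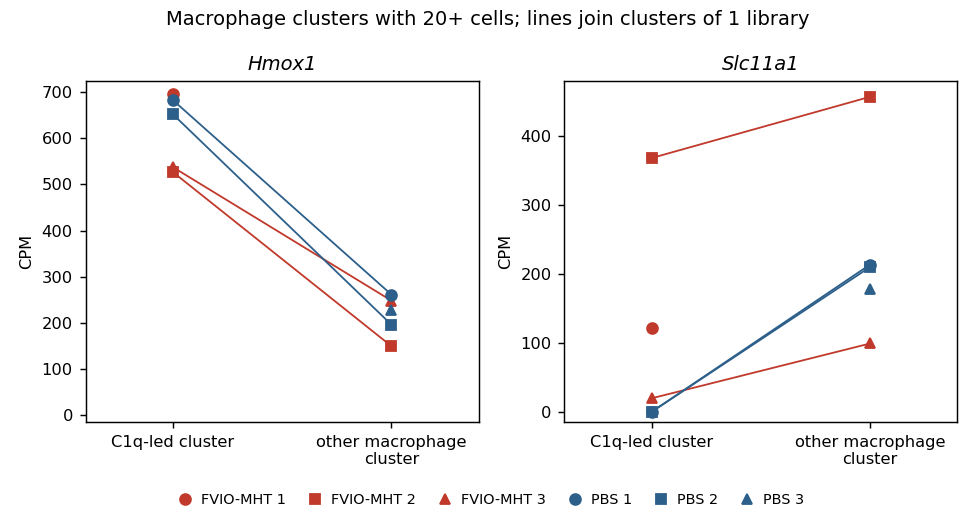
CPM of Hmox1 and Slc11a1 in the C1q-led and the other macrophage cluster of each library with 20 or more cells of the cluster, lines joining values of 1 library. Every line falls for Hmox1, to values from 149.8 to 261 CPM in the other cluster. Every line climbs for Slc11a1, with the PBS lines starting from 0 UMIs.

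Blvrb was low everywhere, with 165 UMIs in all kept barcodes. Its highest class mean was in macrophage/monocyte-like cells, with 57.9, 64.7 and 80.7 CPM in the FVIO-MHT libraries, against 34.4, 76.7 and 87.1 CPM in the PBS libraries, and it lay above tumour epithelial-like cells in 5 of 5 libraries by 1.15 ± 0.72 on the log2(CPM + 10) scale.

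Tfrc was higher in tumour epithelial-like than in macrophage/monocyte-like cells, the opposite of both ferritin chains for that pair of classes. Tumour epithelial-like cells held 457 and 178 CPM in FVIO-MHT libraries 2 and 3, against 401, 147 and 143 CPM in the PBS libraries. The class gave 77.5% and 53.6% of the Tfrc UMIs of those FVIO-MHT libraries, against 72.2%, 89.7% and 60.7% in the PBS libraries. Its shares of all UMIs were 41.8% and 45.1% in those FVIO-MHT libraries, against 64.0%, 83.3% and 50.5% in the PBS libraries. Macrophage/monocyte-like cells held 0, 28.7 and 85.2 CPM in the FVIO-MHT libraries, against 51.6, 32.0 and 43.6 CPM in the PBS libraries, and were below tumour epithelial-like cells in 5 of 5 libraries, with a paired difference of −2.14 ± 1.03 on the log2(CPM + 10) scale. The value of 0 comes from FVIO-MHT library 1, where 3 UMIs, the upper limit that a count of 0 allows, would correspond to 86.9 CPM. Neutrophil-like cells held 69.6 and 86.4 CPM in FVIO-MHT libraries 1 and 2, against 181 CPM in PBS library 1, and lay above macrophage/monocyte-like cells in 3 of 3 libraries, by 1.98 ± 0.89. The limit of 86.9 CPM is above the neutrophil-like value of FVIO-MHT library 1, so the order is not resolved there. In PBS library 1 it rests on 5 against 3 UMIs. B/plasma-like cells, present at 20 or more cells in PBS library 1 only, held 375 CPM there. The cluster led by Hbb-bs and Krt7 had the highest mean, 8.36 ± 1.11 on the log2(CPM + 10) scale, and did not differ from tumour epithelial-like cells beyond the spread, being higher in 2 of 4 libraries.

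Of the genes that move iron out of cells, Cp was abundant and Slc40a1 was scarce. Tumour epithelial-like cells gave 79.5% and 53.4% of the Cp UMIs of FVIO-MHT libraries 2 and 3, against 95.4%, 97.6% and 86.7% in PBS libraries 1, 2 and 3, while FVIO-MHT library 1 had 0 Cp UMIs. In FVIO-MHT library 3 the unnamed cells gave a further 41.0%, beside 30.4% of all UMIs. Tumour epithelial-like cells held 41.8% and 45.1% of all UMIs in FVIO-MHT libraries 2 and 3, against 64.0%, 83.3% and 50.5% in the PBS libraries. Tumour epithelial-like cells exceeded macrophage/monocyte-like cells in 5 of 5 libraries, the difference of macrophage/monocyte-like minus tumour epithelial-like cells being −4.24 ± 1.68 on the log2(CPM + 10) scale. Fibroblast-like cells held 302 and 79.8 CPM in FVIO-MHT libraries 2 and 3, against 270.0 and 537 CPM in PBS libraries 2 and 3. Slc40a1 had 29 UMIs in all kept barcodes, of which 15 were in neutrophil-like cells. These cells held 13.9 and 63.3 CPM in FVIO-MHT libraries 1 and 2, on 13 UMIs, against 36.3 CPM in PBS library 1, on 1 UMI. Their share of all UMIs was 79.3% and 19.3% in those FVIO-MHT libraries, against 3.13% in PBS library 1. In macrophage/monocyte-like cells, where ferroportin is known to export recycled iron, Slc40a1 had 0 UMIs in 5 of 6 libraries and 1 UMI in PBS library 3. Its whole-library level was 11.0, 14.4 and 1.14 CPM with FVIO-MHT, against 2.27, 3.77 and 6.37 CPM with PBS.

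Slc11a1, a transporter that moves divalent metals out of the phagosome and of which Balb/c mice are known to carry a loss-of-function allele, was mostly found in phagocytes. Neutrophil-like cells held 648 and 731 CPM in FVIO-MHT libraries 1 and 2, against 726 CPM in PBS library 1. Macrophage/monocyte-like cells held 116, 445 and 26.9 CPM in the FVIO-MHT libraries, against 155, 192 and 203 CPM in the PBS libraries. Neutrophil-like cells gave 95.9%, 65.5% and 0% of the Slc11a1 UMIs of FVIO-MHT libraries 1, 2 and 3, against 64.5%, 2.78% and 18.2% in PBS libraries 1, 2 and 3. Macrophage/monocyte-like cells gave 4.12%, 32.0% and 60.0% in the FVIO-MHT libraries, against 29.0%, 83.3% and 63.6% in the PBS libraries, so which class gave more differed between libraries. Of all UMIs, neutrophil-like cells held 79.3%, 19.3% and 0.100% in the FVIO-MHT libraries, against 3.13%, 0.281% and 0.769% in the PBS libraries. Macrophage/monocyte-like cells held 19.1%, 15.4% and 12.8% of all UMIs in the FVIO-MHT libraries, against 6.61%, 8.42% and 14.6% in the PBS libraries. Tumour epithelial-like cells stayed at 5.31 CPM or less.

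Over whole libraries, the FVIO-MHT libraries all exceeded the PBS libraries in Hmox1 and all lay under them in Cp, but no member passed the test. Hmox1 was 888, 119 and 117 CPM with FVIO-MHT, against 57.9, 42.0 and 80.7 CPM with PBS. FVIO-MHT libraries 2 and 3 lay a little above the PBS range, and library 1 far above it. Cp was 0, 319.7 and 236 CPM with FVIO-MHT, against 836, 982 and 718 CPM with PBS, where the 0 of FVIO-MHT library 1 allows up to 16.6 CPM (3 UMIs, counting error only). Fth1 was 51652, 17359.8 and 8093 CPM with FVIO-MHT, against 14868, 6528 and 8225 CPM with PBS, and Ftl1 was 4917, 1202 and 1362 CPM with FVIO-MHT, against 852, 1194 and 1949.6 CPM with PBS. For both chains the groups overlapped and FVIO-MHT library 1 stood far above the rest. In a whole-library sum, more cells of a class and more RNA per cell cannot be told apart.

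**Figure D4:**
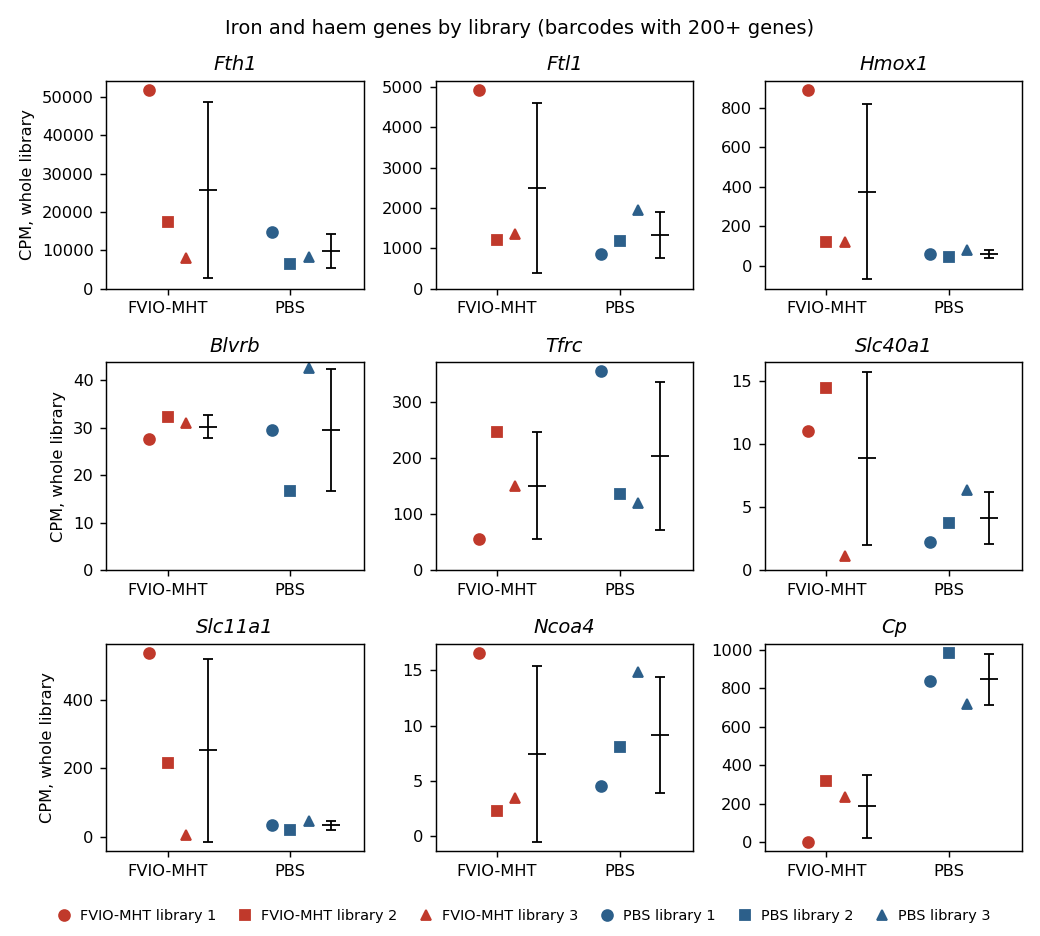
CPM of the 9 members in each whole library over barcodes with 200 or more genes, with the mean ± SD of the 3 libraries of each group beside the points. FVIO-MHT library 1 is the highest point for Fth1, Ftl1, Hmox1 and Slc11a1, and Cp is the gene whose FVIO-MHT points all lie below its PBS points.

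The edgeR quasi-likelihood test called 0 of 8603 genes in whole libraries at a Benjamini-Hochberg adjusted p under 0.05 (0%), with 451 genes (5.24%) at an unadjusted p under 0.05 and 185 (2.15%) called by DESeq2. Of the 7 members tested, 0 were called by either tool, and DESeq2 gave no p for Hmox1. Hmox1 had a log2 fold change of 3.25 ± 1.07 (SE, edgeR adjusted p = 0.878) and Slc11a1 one of 3.45 ± 1.35 (edgeR adjusted p = 0.878), and both were among the genes with an unadjusted p under the threshold. For Slc11a1 the groups overlapped. FVIO-MHT library 1 lay at 535 CPM, while FVIO-MHT library 3 lay at 5.72 CPM, on 10 UMIs, below the PBS range of 19.4 to 46.7 CPM. Fth1 stood at 1.94 ± 1.07, Ftl1 at 1.43 ± 0.89 and Cp at −2.18 ± 1.03, each with an edgeR adjusted p of 0.878 or more, and Blvrb at 0.24 ± 0.49 and Tfrc at −0.30 ± 0.59. Non-overlap between the groups is not rare here: 273 of 8603 genes (3.17%) were higher and 814 (9.46%) were lower in every FVIO-MHT library, against 1 member of 7 in each direction. The positive values leaned on FVIO-MHT library 1 and on neutrophil-like cells. Without that library the log2 fold changes were 0.36 for Fth1, −0.08 for Ftl1, 0.98 for Hmox1, 1.73 for Slc11a1 and −1.63 for Cp, and without neutrophil-like cells they were 0.66, 0.18, 1.84, 1.15 and −1.94 in the same order. At a minimum of 400 genes they were 0.70, 0.33, 1.68, 1.85 and −1.97 in that order. Taking out neutrophil-like cells left FVIO-MHT library 1 with 64 macrophage/monocyte-like, 3 fibroblast-like and 0 tumour epithelial-like barcodes. Neutrophil-like cells held 79.3%, 19.3% and 0.100% of the UMIs of FVIO-MHT libraries 1, 2 and 3, against 3.13%, 0.281% and 0.769% in PBS libraries 1, 2 and 3, and they gave 88.5%, 42.8% and 0.375% of the Fth1 UMIs of the FVIO-MHT libraries, against 10.2%, 0.528% and 3.41% in the PBS libraries. All 8 neutrophil markers were detected in each library, with summed levels of 87588, 14099 and 394 CPM with FVIO-MHT, against 2907, 434 and 771 CPM with PBS.

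**Figure D5:**
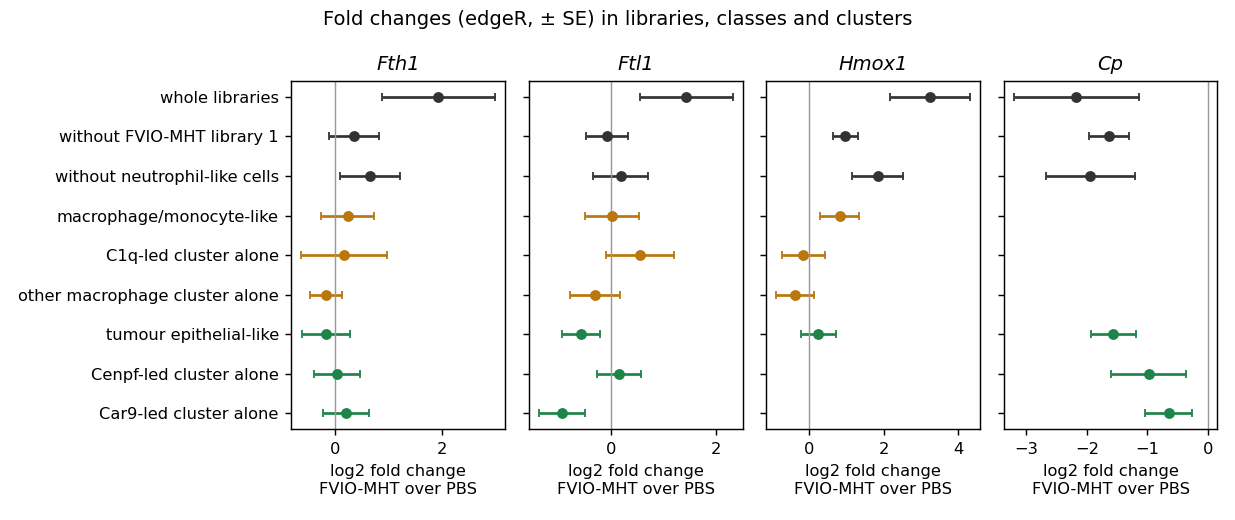
Log2 fold changes of FVIO-MHT over PBS with the edgeR standard error for Fth1, Ftl1, Hmox1 and Cp, in whole libraries, in the 2 classes with enough cells and in single clusters, with no point where a gene was not tested. Fth1, Ftl1 and Hmox1 change sign between rows, Hmox1 from 3.25 in whole libraries to −0.37 in the other macrophage cluster. Cp is negative in every row where it was tested.

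In macrophage/monocyte-like cells, compared over 3 libraries in each group, the ferritin chains differed little between the groups relative to their spread. The Fth1 mean was 22901 ± 6667 CPM in the FVIO-MHT libraries, against 20885 ± 5806.5 CPM in the PBS libraries (SD over 3 libraries in each group), which gave 0.23 ± 0.49 on the log2 scale (fold change ± SE, edgeR adjusted p = 0.991). The Ftl1 mean was 2993 ± 1092 CPM in the FVIO-MHT libraries, against 3173 ± 1668 CPM in the PBS libraries, at 0.01 ± 0.52 (edgeR adjusted p = 0.9997). The Hmox1 mean was 459 ± 237 CPM in the FVIO-MHT libraries, against 273 ± 92.8 CPM in the PBS libraries, at 0.82 ± 0.53 (edgeR adjusted p = 0.984), and Slc11a1 stood at 0.13 ± 0.75. The sign of Hmox1 turned when either cluster was fitted alone, to −0.15 ± 0.58 in the C1q-led cluster and −0.37 ± 0.51 in the other, settings added after the data were seen. The groups overlapped for all 4 members tested, and Blvrb, Tfrc, Slc40a1, Ncoa4 and Cp did not pass the filter on low counts. Across all genes, edgeR called 0 of 2073 (0%), with 92 (4.44%) at an unadjusted p under 0.05, and DESeq2 called 2 (0.0965%), and 73 genes (3.52%) were higher and 130 (6.27%) lower in every FVIO-MHT library. Markers of the neighbouring phagocyte class moved among these libraries: the summed neutrophil markers in macrophage/monocyte-like cells were 5559, 3011 and 704 CPM with FVIO-MHT, against 2354, 300.5 and 1045 CPM with PBS, with 6 to 8 of 8 markers detected in each. The 11 macrophage/monocyte markers summed to 4285, 6711 and 14887 CPM with FVIO-MHT, against 5826, 10466 and 5880 CPM with PBS. In FVIO-MHT library 1 they lay below the neutrophil markers, with Adgre1 and Ly6c2 at 0 UMIs. The part of either marker set in these values was not tested.

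In tumour epithelial-like cells, Cp was lower in both FVIO-MHT libraries that held the class than in any PBS library, and the call depended on the tool. Its level was 608 and 279 CPM in FVIO-MHT libraries 2 and 3, against 1246, 1151 and 1232 CPM in PBS libraries 1, 2 and 3, and the PBS libraries lay close together. The log2 fold change was −1.56 ± 0.37 (SE, edgeR adjusted p = 0.341), and DESeq2 gave −1.57 with an adjusted p of 0.0213. Over the alternatives to the main fit, the edgeR adjusted p of Cp ran from 0.00836, without FVIO-MHT library 2, to 0.997. The clusters of the class were filled unequally. The Cenpf-led cluster, named for a gene of dividing cells, gave 45 of 198 and 368 of 406 tumour epithelial-like cells in FVIO-MHT libraries 2 and 3, against 25 of 426, 78 of 1057 and 14 of 174 in the PBS libraries. In that cluster Cp stood at 111 and 255 CPM in FVIO-MHT libraries 2 and 3, against 142 and 541 CPM in PBS libraries 1 and 2, a log2 fold change of −0.98 ± 0.62. In the Car9-led cluster, which is marked by a hypoxia-induced carbonic anhydrase, Cp stood at 712 and 1354 CPM in FVIO-MHT libraries 2 and 3, against 1608, 1133 and 1352 CPM in the PBS libraries, at −0.65 ± 0.38. The groups overlapped in these 2 clusters, and neither value passed the edgeR test (adjusted p = 0.991 and 0.881). In the Pthlh-led cluster Cp stood at 839 CPM in FVIO-MHT library 2, against 1324 and 2293 CPM in PBS libraries 1 and 2, with no other library holding 20 of its cells. FVIO-MHT library 2 thus lay below every PBS library shown in each of the 3 clusters, and FVIO-MHT library 3 lay within the PBS range in the Cenpf-led and Car9-led clusters. The Tslp-led cluster gave 6 of 198 and 4 of 406 tumour epithelial-like cells in FVIO-MHT libraries 2 and 3. In the PBS libraries it gave 20 of 426, 606 of 1057 and 88 of 174. Its PBS sums held Cp at 1244 to 1330 CPM, with 1502 of the 3225 Cp UMIs of the class. Cp is itself among the 10 leading genes of the Car9-led and Tslp-led clusters. The part of the cluster makeup in the Cp value was not tested.

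The other members did not separate the groups in tumour epithelial-like cells. Fth1 stood at −0.18 ± 0.45, Ftl1 at −0.58 ± 0.36, Hmox1 at 0.25 ± 0.47, Blvrb at −0.21 ± 0.57 and Tfrc at 0.34 ± 0.51 (log2 fold change ± SE, edgeR adjusted p between 0.632 and 0.932), while Slc11a1, Slc40a1 and Ncoa4 did not pass the filter. Across all genes in this class edgeR called 0 of 7499 (0%), with 703 (9.37%) at an unadjusted p under 0.05, and DESeq2 called 25 (0.333%). With 2 libraries against 3, 1288 genes (17.2%) were higher and 710 (9.47%) lower in every FVIO-MHT library, against 0 and 1 of the 6 members tested. The haemoglobin and other erythroid markers summed to 15.9 and 96.4 CPM in this class in FVIO-MHT libraries 2 and 3, against 5.33, 0.646 and 50.5 CPM in the PBS libraries, and their part in these values was not tested.

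Whether the effect of treatment differed between macrophage/monocyte-like and tumour epithelial-like cells was tested in the 5 libraries that held both, with the library as a block. The edgeR fit called 2 of 5987 genes (0.0334%; 350 genes, or 5.85%, at an unadjusted p under 0.05) and DESeq2 called 1 (0.0167%), none of them a member. The difference of log2 fold changes, macrophage/monocyte-like minus tumour epithelial-like, was −0.01 ± 0.45 for Fth1, 0.58 ± 0.41 for Ftl1, 0.13 ± 0.62 for Hmox1, 0.96 ± 0.75 for Cp, −1.40 ± 1.29 for Slc11a1, 0.21 ± 0.81 for Blvrb and 0.24 ± 0.72 for Tfrc, each with an edgeR adjusted p of 0.997 or more. These standard errors leave room for differences of either sign.

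Other genes of iron and haem metabolism, 58 in 7 lists, gave no call by edgeR in the main fit of any of the 4 comparisons. In whole libraries 40 were tested, 27 of them with a positive value, and the median log2 fold change was 0.26 beside −0.04 for all genes. In macrophage/monocyte-like cells 10 were tested, 8 with a positive value and a median of 0.50 beside 0.01 for all genes, and in tumour epithelial-like cells 33 were tested, 16 with a positive value and a median of −0.003 beside 0.02. For the difference between the classes 27 were tested and the median was 0.12 beside 0.02. The 7 tested members themselves had a median of 1.43 in whole libraries, 4 had 0.18 in macrophage/monocyte-like cells and 6 had −0.19 in tumour epithelial-like cells.

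The pathway genes with the lowest p-values in whole libraries were Fbxl5, the iron-sensing subunit that marks an iron regulatory protein for degradation, Steap4, a metalloreductase, and Alas1, the first enzyme of haem synthesis. Fbxl5 was 1611, 624 and 99.6 CPM with FVIO-MHT, against 199, 95.8 and 129.6 CPM with PBS, a log2 fold change of 3.02 ± 1.07 (SE, edgeR adjusted p = 0.878, DESeq2 adjusted p = 0.0204). Steap4 was 204, 175 and 11.4 CPM with FVIO-MHT, against 15.9, 9.15 and 38.2 CPM with PBS, at 3.07 ± 1.11 (DESeq2 adjusted p = 0.0142). Both were high in FVIO-MHT libraries 1 and 2 and within or below the PBS range in FVIO-MHT library 3, and so was Alas1, at 215, 67.7 and 17.2 CPM with FVIO-MHT, against 23.8, 26.4 and 42.5 CPM with PBS. In macrophage/monocyte-like cells the genes of lowest p were Lrp1, a receptor that takes up haem bound to hemopexin, the transcription factor Maf, and Fbxl5. Lrp1 was 811, 402 and 242 CPM with FVIO-MHT, against 309, 173 and 87.1 CPM with PBS, at 1.38 ± 0.59 (edgeR adjusted p = 0.984). Maf stood at 1.17 ± 0.55 and Fbxl5 at 1.45 ± 0.82, and the groups overlapped for all 3.

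In tumour epithelial-like cells the genes of lowest p were Tmprss6, a protease that lowers hepcidin in liver, Bach1, a haem-sensing repressor of Hmox1 and ferritin genes, and Cisd1, a mitochondrial iron-sulphur protein. Tmprss6 had 0 UMIs in both FVIO-MHT libraries, against 5.33, 25.8 and 29.4 CPM in the PBS libraries (edgeR adjusted p = 0.384), where 0 UMIs allow up to 7.97 and 3.81 CPM. In 2 alternatives to the main fit, edgeR included, Tmprss6 passed the threshold. Bach1 was 37.2 and 21.6 CPM in FVIO-MHT libraries 2 and 3, against 71.0, 64.6 and 63.1 CPM in the PBS libraries, at −1.32 ± 0.37 (edgeR adjusted p = 0.417), and the groups did not overlap. Cisd1 was 82.3 and 147 CPM with FVIO-MHT, against 71.0, 57.5 and 42.1 CPM with PBS, at 0.92 ± 0.37 (edgeR adjusted p = 0.502). For the difference between the classes the lowest p-values were those of Slc39a14, a metal importer, at 1.39 ± 0.60, Cpox, an enzyme of haem synthesis, at −2.11 ± 0.92, and Lcn2, which binds iron-carrying siderophores, at 1.6 ± 0.71, each with an edgeR adjusted p of 0.783.

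The genes whose levels most resembled each member over 29 sums of 20 or more cells, from 9 named classes and the 6 libraries, were taken from 3806 genes with a mean of 50 CPM or more. For Fth1 they were Slc7a11 (Pearson r = 0.89), Clec4e (0.89) and Tnfrsf1b (0.87), and for Slc11a1 Ptafr (0.92), Lilr4b (0.90) and Fcer1g (0.90). Ftl1 was most like Nfe2l2 (0.81) and Hmox1 (0.80), which places 2 of the myeloid members together, and Hmox1 was most like P4hb (0.83), Ctsb (0.81) and Gda (0.81). For Cp the closest were Cyr61 (0.82), Sdc2 (0.81) and Nfix (0.81). Tfrc (Kif5b 0.76, Hnrnpu 0.76 and Rsf1 0.74) and Blvrb (Gpalpp1 0.70, Lamp1 0.68 and Ctsh 0.68) had weaker matches. Sums of one library share its depth and sums of one class share its cells, so these values describe likeness of pattern and carry no test.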

How the data were processed

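Single-cell expression was measured in 6 Drop-seq libraries, 3 FVIO-MHT and 3 PBS, grouped by their labels. The authors deposited UMI counts per gene and barcode, not normalized, for 5000 barcodes a library. The submitters' processing notes name STAR 2.7.2b and mm10. The sources used here do not give the counting tool, the annotation, the strand or how barcodes were chosen. The 9 members, the marker lists and the 58 pathway genes were chosen with earlier results of these data known.

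Of rows repeating a symbol, 65 with identical counts were dropped. Barcodes with 200 or more genes were kept, 332 to 2325 a library, at a median of 400 to 834 UMIs. They were clustered with scanpy 1.11.5 (2000 variable genes without members and pathway genes, 30 components, 15 neighbours, Leiden resolution 1). A cluster was named where 3 or more markers were detected in 5% of cells at 2 times the median of clusters. The mean log2 ratio over all markers of the class also had to reach that of 2 times. A cluster stayed unnamed where its 10 leading genes held at least as many markers of another qualifying class. Tumour epithelial was tried last, and for clusters without another name the median was that of the clusters already named. Scrublet marked 39 barcodes (0.579%), which were kept in the main fit. Counts were summed per library and class (20 or more cells) and fitted with edgeR 4.0.16 in R 4.3.3 (TMM, filterByExpr, quasi-likelihood test, Benjamini-Hochberg adjustment at 0.05), with DESeq2 1.42.0 as an alternative. SE is the fold change divided by the root of F. CPM is relative to the kept UMIs of the library or class. Drop-seq counts transcript ends, so no length correction was made. The scripts were tested on simulated data. The genes named are the 9 members, the 3 pathway genes of lowest p in each comparison and the 3 genes most correlated with each member. One result under this rule is not reported here. Same-numbered libraries were checked for pairing and were not paired (correlations of deviations 0.156, 0.019 and −0.085). Other alternatives were normalization, count filter, gene minimum, doublets, haemoglobin-rich barcodes, resolution and leaving out each library. Limits from 3 counts cover counting error only.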

Additional observations from a re-analysis of the deposited data

Results flagged for a closer look

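Barcodes under 200 detected genes were left out of the main comparisons. In them Hmox1 stood at 941, 201.7 and 215 CPM in FVIO-MHT libraries 1, 2 and 3, against 104, 173 and 197.6 CPM in PBS libraries 1, 2 and 3, and was flagged because the lowest FVIO-MHT library lay above the highest PBS library. These sums cover 4668, 3951 and 2675 barcodes in the FVIO-MHT libraries, against 3920, 3538 and 4518 in the PBS libraries, and they mix shallow cells with free RNA. The gap between FVIO-MHT library 2 and PBS library 3 is small beside the spread within either group, and no test was run.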

How the results depend on the processing

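No member was called by edgeR in whole libraries or macrophage/monocyte-like cells under any alternative; Cp in tumour epithelial-like cells passed at an adjusted p of 0.0213 with DESeq2, 0.0124 with no filter on low counts, 0.0251 with the replicate block and 0.00836 without FVIO-MHT library 2. Counts of called genes moved in whole libraries to 185 with DESeq2 and 2 with no filter; in macrophage/monocyte-like cells to 2 and 24; in tumour epithelial-like cells to 25, 152 and, with the replicate block, 165; for the difference between classes to 1 with DESeq2, library size only or no shared barcodes, 29 with no filter, 9 at a minimum of 100 genes and 7 at 400. Leaving out 1 library gave 0 to 0, 0 to 2, 0 to 243 and 3 to 63 calls in these comparisons, the highest of the last 2 without FVIO-MHT library 2; where 1 library of a group was left, it was assumed to vary like the other group. The class with the highest mean was the one reported for 8 to 9 of the 9 members on leaving out a library, 7 at a minimum of 100 genes and 2 at 400, where fewer libraries hold 20 cells of a class. The block rests on numbers that do not pair the samples. Signs turned in whole libraries for Blvrb at 400 genes (−0.086); in macrophage/monocyte-like cells for Ftl1 with library size only (−0.070), no filter (−0.054), no Scrublet calls (−0.0064), no shared barcodes (−0.016) and the Mmp12-led cluster alone (−0.32), Fth1 at 400 genes (−0.036) and in that cluster (−0.17), Slc11a1 with the replicate block (−0.43), Hmox1 in the C1q-led (−0.15) and Mmp12-led cluster (−0.37) and Maf in the Mmp12-led cluster (−0.56); in tumour epithelial-like cells for Fth1 with the replicate block (0.30), Cenpf-led (0.029) and Car9-led cluster alone (0.20) and Ftl1 in the Cenpf-led cluster (0.14); and for the difference for Fth1 with no filter (0.19), 100 genes (0.026), 400 genes (0.17), no Scrublet calls (0.11) and no shared barcodes (0.011), Hmox1 at 100 genes (−0.15) and resolution 2 (−0.0011) and Cp at 400 genes (−0.18). Leaving out 1 library turned signs in whole libraries for Ftl1 (−0.081 to 1.83), Blvrb (−0.064 to 0.57) and Tfrc (−0.76 to 0.32); in macrophage/monocyte-like cells for Fth1 (−0.11 to 0.42), Ftl1 (−0.32 to 0.47) and Slc11a1 (−1.74 to 0.76); in tumour epithelial-like cells for Fth1 (−0.61 to 0.33), Hmox1 (−0.25 to 0.72), Blvrb (−0.70 to 0.028) and Tfrc (−0.43 to 0.97); and for the difference for Fth1 (−0.29 to 0.32), Hmox1 (−1.19 to 1.21), Blvrb (−0.23 to 1.20), Tfrc (−1.53 to 1.37), Slc11a1 (−3.01 to 0.039) and Cp (−0.36 to 2.04). The cause was not tested. The single-cluster and shared-barcode settings were chosen after seeing the data. Whole-library fold changes of Fth1, Ftl1 and Hmox1 also shrank by over 1.5 times with the replicate block (to 1.27, 0.75 and 2.08), and that of Ftl1 with library size only (to 0.90). Slc40a1 (29 UMIs) and Ncoa4 (37 UMIs) did not pass the main filter; in whole libraries they gave 1.08 and −0.73 with no filter and 2.14 and −0.035 at 100 genes, with no call.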
